A study of Mus musculus with 2 samples.

Results

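This account covers 60 genes of WNT signalling in the fetal mouse lung, out of 43346 gene rows in each library. They were taken by symbol from a fixed list of WNT ligands, the Frizzled receptors and their co-receptors, secreted antagonists, R-spondins with their receptors, and the nuclear effectors of the pathway. All 60 were found in both libraries and all are annotated as coding for protein. By role they are 19 WNT ligands, 2 genes of ligand acylation and secretion, 10 Frizzled receptors, 3 co-receptors, 10 secreted antagonists, 1 Dickkopf receptor, 4 R-spondins, 3 R-spondin receptors, 2 ubiquitin ligases of Frizzled, 5 genes for beta-catenin and its TCF/LEF partners, and the feedback target Axin2.

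WNT proteins are lipid-modified secreted signals that bind a Frizzled receptor together with LRP5 or LRP6, which frees beta-catenin from the complex that destroys it and lets it act with TCF/LEF factors on target genes. Some ligands act instead through ROR receptors on cell polarity and movement. Secreted antagonists hold ligands or co-receptors back, whereas R-spondins, through LGR receptors, protect Frizzleds from the ubiquitin ligases ZNRF3 and RNF43. In the developing mouse lung, ligands from the mesenchyme and the epithelium are known to act on lung specification, airway branching and the growth of smooth muscle and vessels.

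The data are total RNA-seq of whole lung from healthy B6NCrl mouse embryos aged 16.5 days, in a single group of 2 biological replicates. Each library took 10 ng of RNA longer than 200 nt. Embryos of both sexes were pooled, 41 of them for replicate 2, with no number given for replicate 1. There is no treatment, genotype or second age, so what can be read are levels, gene ratios inside each library and how far these pools differ, and no test between conditions exists. Totals were 38852470 expected counts in replicate 1 and 27145411 in replicate 2, of which the 60 genes took 0.242% and 0.241%. All 10 lung identity markers, among them Sftpc, Nkx2-1 and Tcf21, were above 10 TPM in both libraries, and 0 of 8 brain markers reached 1 TPM in both, with Olig2 and Neurod1 at 0. The pools differed in markers of neighbouring organs. The summed level of 10 liver markers was 65.3 TPM in replicate 1 and 537.5 in replicate 2, that of 10 skeletal muscle markers 234 and 604 TPM, and that of 10 cardiac markers 1427 and 1183 TPM. Levels are in TPM, the share of transcripts in a library scaled to a fixed total, which are divided by transcript length, and means are given ± SD over n = 2.

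Of the 60 genes, 41 reached 1 TPM in both replicates, the level called detected here, and 25 reached 10 TPM in both. Over all 21474 genes coding for protein the share detected was 61.5% and the share at 10 TPM was 40.3%, so the count of the WNT genes lay near the background. Their median was 5.445 TPM in replicate 1 and 4.915 in replicate 2 (mean 5.18 ± 0.375), against 4.87 ± 0.219 TPM over all coding genes. The levels span from 0 to 376 TPM, and the roles differed in how many members were expressed. All 3 co-receptors, all 3 R-spondin receptors, all 5 genes for beta-catenin and TCF/LEF factors, and both ubiquitin ligases were detected, whereas 7 of 19 ligands, 7 of 10 Frizzleds and 7 of 10 antagonists were. In RNA from whole lung, fewer cells of a type and less RNA per cell cannot be told apart, and this holds for every level below.

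**Figure D1:**
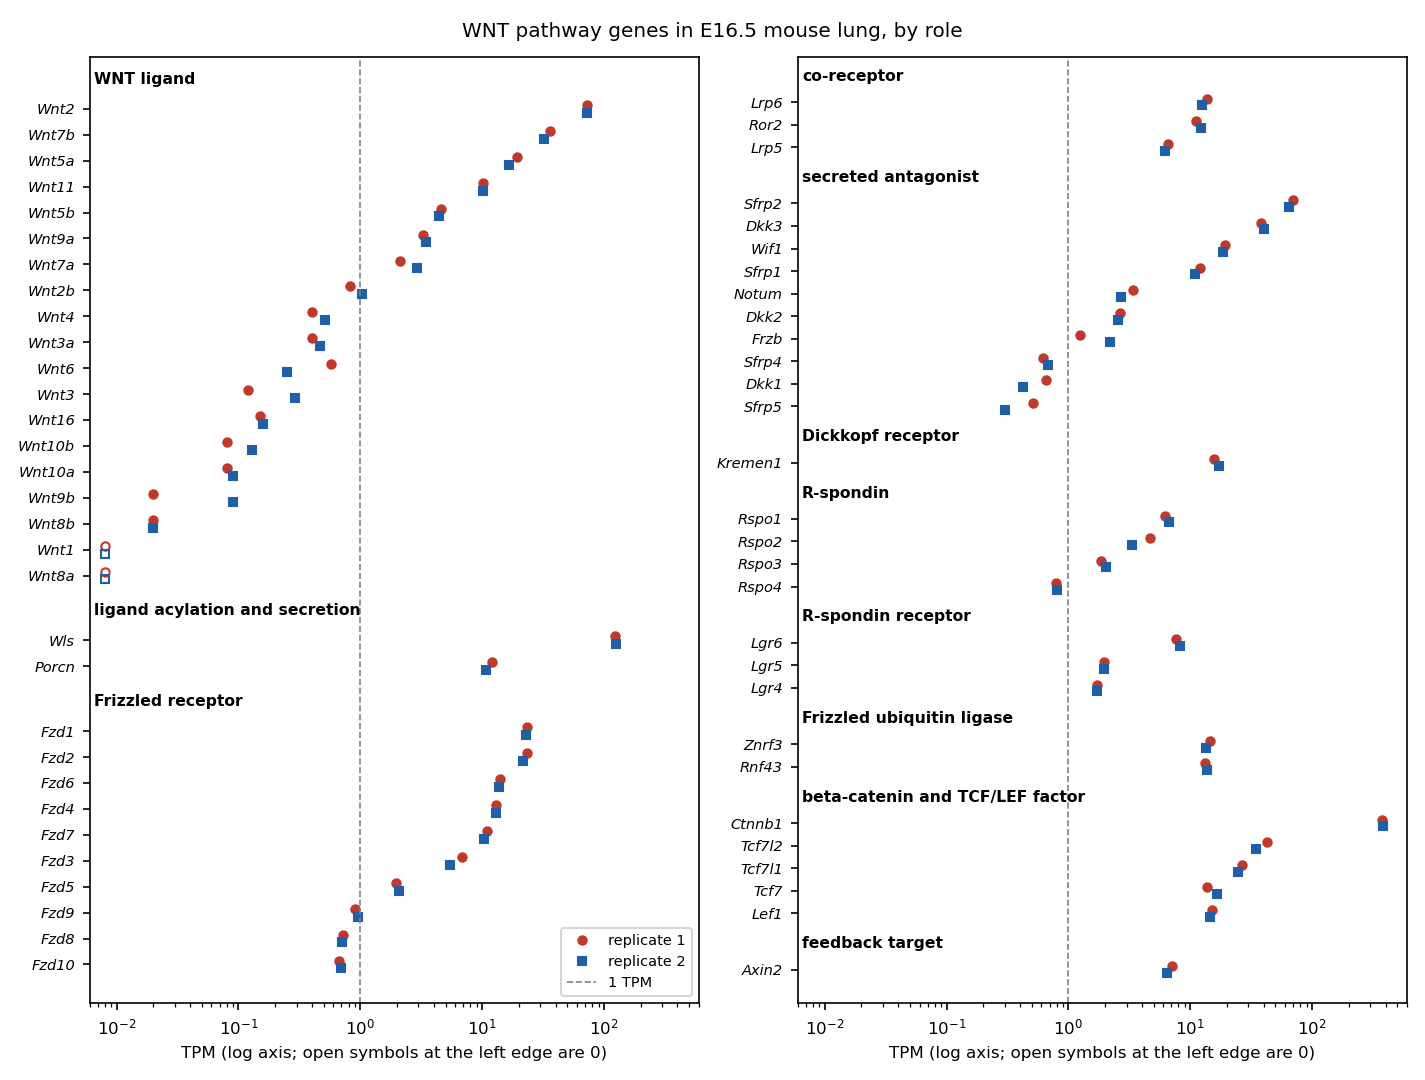
TPM (log axis) of the 60 WNT pathway genes in replicate 1 (circles) and replicate 2 (squares), grouped by role and ordered by mean level within each role, with a dashed line at 1 TPM. The ligands run from Wnt2 at 72.5 TPM down to Wnt1 and Wnt8a at 0, while the co-receptors, LGR receptors, ubiquitin ligases and TCF/LEF factors all lie above 1 TPM.

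A few ligands made up nearly all of the WNT ligand RNA. Wnt2, a mesenchymal ligand of the beta-catenin branch needed for normal lung growth in mice, was at 72.20 TPM in replicate 1 and 72.80 in replicate 2, from 3648 and 2596 expected counts. Wnt7b, the ligand of the lung epithelium that acts on the mesenchyme and vessels, was at 35.92 and 31.89 TPM, from 3073 and 1935 counts. Wnt5a, which acts mainly through ROR receptors and shapes the distal airways, was at 19.19 and 16.74 TPM, from 2605 and 1661 counts. These 3 ligands took 49.1 ± 1.42%, 22.9 ± 1.40% and 12.1 ± 0.891% of the summed ligand level of 147.79 ± 3.42 TPM. The deposited credibility bounds of Wnt2 were 68.1 to 73.1 TPM in replicate 1 and 67.7 to 73.7 in replicate 2, those of Wnt7b 33.9 to 36.4 and 29.6 to 32.3 TPM, and those of Wnt5a 18.1 to 21.6 and 15.8 to 19.6 TPM.

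The next ligands were Wnt11 at 10.22 and 10.13 TPM, Wnt5b at 4.63 and 4.43 TPM, Wnt9a at 3.27 and 3.44 TPM and Wnt7a at 2.12 and 2.89 TPM. Wnt11 and Wnt5b are, like Wnt5a, mostly known for signalling outside the beta-catenin branch. Wnt2b, which overlaps Wnt2 in function in the early foregut of the mouse, stood just under the detection level, at 0.82 and 1.04 TPM from 74 and 67 counts. The ranges of the paired TPM values of these 8 ligands did not overlap between neighbours in the order of levels. These levels are totals over all transcripts. Wnt11-205, the main Wnt11 form of 354 codons, was at 4.19 and 4.25 TPM, near the Wnt5b total. The deposited bounds did overlap between Wnt5b and Wnt9a in replicate 2 and between Wnt9a and Wnt7a in both libraries, and the posterior mean of replicate 2 put Wnt7a, at 3.5 TPM, above Wnt9a, at 3.37 TPM. Below Wnt2b the order was not resolved, since 8 of the 18 neighbouring pairs overlapped in TPM and all of those lay there. Wnt4, Wnt3a, Wnt6, Wnt3, Wnt16, Wnt10b, Wnt10a, Wnt9b and Wnt8b ranged from 0.02 to 0.57 TPM, on 1 to 43 counts per library. Wnt1, a ligand of the midbrain, and Wnt8a, one of the gastrula, had 0 counts in both. With 3 counts as the limit that a count of 0 allows, Wnt1 lay below 0.0504 TPM in replicate 1 and 0.0710 in replicate 2, and Wnt8a below 0.0697 and 0.0983 TPM. These limits cover counting error only.

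Within each library Wnt2 exceeded Wnt7b 2.01-fold in replicate 1 and 2.28-fold in replicate 2, a log2 ratio of 1.10 ± 0.13, taken over all transcripts of each gene. The leading coding forms were closer, with Wnt2-201 at 40.93 and 40.00 TPM and Wnt7b-201 at 35.08 and 30.82 TPM. Wnt2 also exceeded Wnt5a by a log2 ratio of 2.02 ± 0.15. The close relatives Wnt5a and Wnt5b differed by a log2 ratio of 1.98 ± 0.09, and Wnt5a exceeded Wnt11 by 0.82 ± 0.13. The Wnt11 total includes much RNA annotated as a target of nonsense-mediated decay, so its ratio to Wnt5a is not one of coding forms. Wnt7b exceeded its relative Wnt7a by 16.9-fold in replicate 1 and 11.0-fold in replicate 2. The wide spread lies mostly with Wnt7a, on expected counts of 165 and 141. Its deposited bounds were 1.95 to 3.69 TPM and 2.38 to 4.8 TPM. Part of its difference lay in Wnt7a-203, a 250-nt transcript without a coding frame. That form was at 0 TPM in replicate 1 and 0.43 in replicate 2, on 1.21 expected counts. A ratio's sign is said to hold here where both replicates have it and the mean log2 ratio exceeds 2 SD, and all 5 of these held.

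Wnt2 lies on chromosome 6 (17988940 to 18030585, minus strand, build mm10), Wnt7b on chromosome 15 (85535437 to 85582473, minus strand) and Wnt5a on chromosome 14 (28504750 to 28527448, plus strand). Wnt7b RNA was nearly all of a single form, Wnt7b-201, at 97.68% and 96.64% of the gene's TPM. Wnt5a was divided between Wnt5a-201, with 380 codons and 54.27% and 57.78% of its TPM, and the shorter Wnt5a-202, with 360 codons and 40.25% and 37.39%. Of Wnt2, 56.69% and 54.94% was Wnt2-201, with 360 codons. The rest was assigned to a 1741-nt transcript of the annotation the authors used that has no entry in the later annotation from which names were taken, and its coding status is not known here.

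Wnt11 and Wnt5b each have several annotated start sites with TPM assigned to them. The windows around those starts are shown because the start in use sets which upstream sequence precedes the gene. Each window is from RefSeq (GRCm38.p6), 300 bases in the direction of the gene, 250 before the start and 50 from it on. Capitals mark CTTTGA, the core of the sequence that TCF/LEF factors bind, or its reverse complement TCAAAG. Wnt11 and Wnt5b are the genes with such a match in the window of a start that had TPM assigned. Ctnnb1, Tcf7 and Rnf43 also have several starts with TPM assigned, and their windows, not printed, hold no match. The upstream Wnt11 window is chr7:98834862-98835161 and the downstream window is chr7:98838595-98838894, both on the plus strand.

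Wnt11 upstream start: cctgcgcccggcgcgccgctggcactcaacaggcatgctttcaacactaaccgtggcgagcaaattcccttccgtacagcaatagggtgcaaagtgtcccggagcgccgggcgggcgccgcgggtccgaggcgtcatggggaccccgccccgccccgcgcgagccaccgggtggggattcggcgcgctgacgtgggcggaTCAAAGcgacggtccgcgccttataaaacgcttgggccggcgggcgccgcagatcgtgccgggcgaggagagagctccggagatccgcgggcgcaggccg

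Wnt11 downstream start: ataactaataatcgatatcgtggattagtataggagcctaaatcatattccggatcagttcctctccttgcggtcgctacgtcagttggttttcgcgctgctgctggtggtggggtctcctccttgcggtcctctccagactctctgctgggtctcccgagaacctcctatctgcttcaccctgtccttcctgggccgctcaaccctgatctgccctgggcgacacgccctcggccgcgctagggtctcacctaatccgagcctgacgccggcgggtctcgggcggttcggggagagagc

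The Wnt5b windows, on the minus strand, are chr6:119544298-119544597 for the start farthest upstream, chr6:119467162-119467461 for the middle start and chr6:119449337-119449636 for the start farthest downstream.

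Wnt5b first start: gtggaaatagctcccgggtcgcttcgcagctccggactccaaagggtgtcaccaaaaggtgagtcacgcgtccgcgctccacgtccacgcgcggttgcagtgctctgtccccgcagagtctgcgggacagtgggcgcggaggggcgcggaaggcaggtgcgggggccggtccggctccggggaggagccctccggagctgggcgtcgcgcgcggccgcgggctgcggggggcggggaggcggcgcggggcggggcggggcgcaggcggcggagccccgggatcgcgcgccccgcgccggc

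Wnt5b middle start: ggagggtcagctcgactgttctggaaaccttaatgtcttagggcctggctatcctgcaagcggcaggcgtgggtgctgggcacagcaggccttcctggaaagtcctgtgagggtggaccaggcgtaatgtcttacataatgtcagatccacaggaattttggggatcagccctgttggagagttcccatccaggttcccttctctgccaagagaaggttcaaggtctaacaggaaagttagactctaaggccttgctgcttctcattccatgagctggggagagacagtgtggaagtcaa

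Wnt5b last start: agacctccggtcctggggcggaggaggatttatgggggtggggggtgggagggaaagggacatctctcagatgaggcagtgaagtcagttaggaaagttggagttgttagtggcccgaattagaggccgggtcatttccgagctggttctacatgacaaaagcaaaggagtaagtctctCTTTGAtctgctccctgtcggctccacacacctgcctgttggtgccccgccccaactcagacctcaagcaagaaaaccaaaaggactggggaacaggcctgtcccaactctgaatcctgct

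Transcripts beginning within 60 nt of the upstream Wnt11 start held 48.38% of the Wnt11 TPM in replicate 1 and 49.35% in replicate 2, and those at the downstream start held 51.63% and 50.66%. The shares assigned to the starts were thus alike in both pools. The transcripts assigned to them differed. The downstream start gave mainly Wnt11-205, which has 354 codons and held 40.98% and 41.99%. The upstream start gave mainly Wnt11-202, annotated as a target of nonsense-mediated decay, at 37.65% and 47.44%, while its own form of 354 codons, Wnt11-201, held 2.68% and 1.91%. The upstream window holds a TCAAAG 50 bases before the start, and the downstream window holds neither form of the motif. For Wnt5b the first start held 77.75% of the TPM in replicate 1 and 47.16% in replicate 2, the middle start 9.59% and 34.2%, and the last start 12.66% and 18.64%. The last window holds a CTTTGA 71 bases before its start. With 267 and 175 counts over 4 transcripts, the division of Wnt5b among its starts is uncertain. Shares of start sites come from the authors' division of reads among transcripts, not from reads that mark a start. The transcript starts are those of a later annotation than the authors used. Most of these Wnt11 and Wnt5b transcripts have another version there, so the starts of the quantified transcripts may differ.

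**Figure D2:**
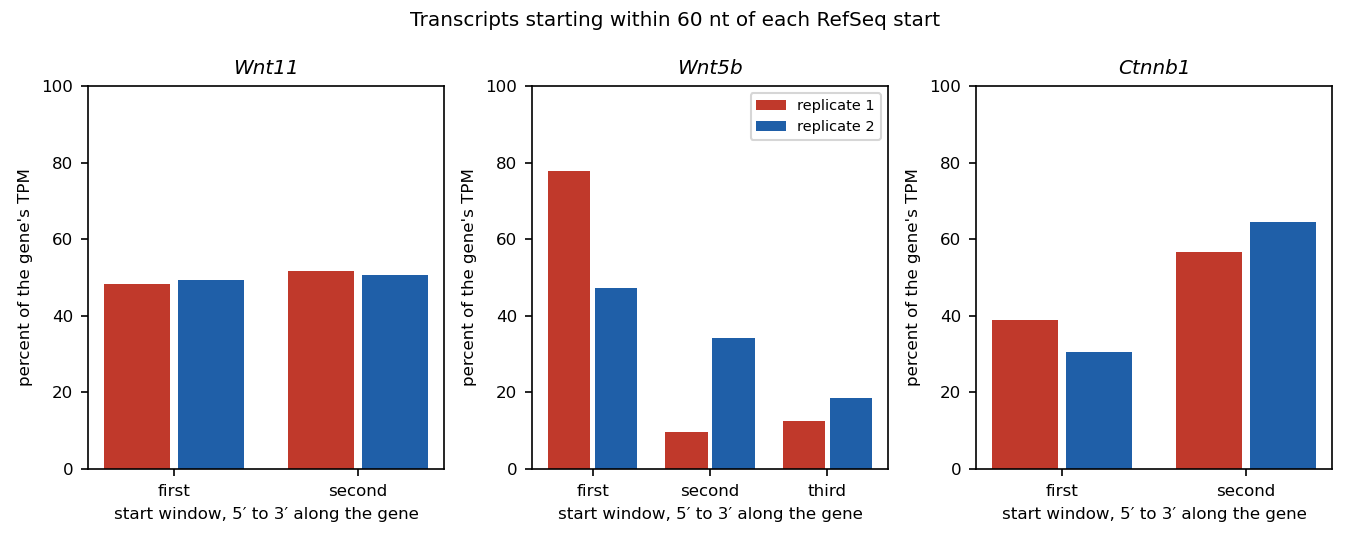
Percent of each gene's TPM in transcripts beginning within 60 nt of each RefSeq start, for Wnt11, Wnt5b and Ctnnb1, with replicate 1 left of replicate 2 at each start. The Wnt11 starts each held 48% to 52% in both replicates, and the first Wnt5b start held 77.75% in replicate 1 and 47.16% in replicate 2.

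The promoter table had 50 windows for 40 of the 60 genes, and 6 of them, 12%, held CTTTGA on either strand, against 16% of all 32851 windows of the same length. The windows of the WNT genes were richer in GC, with a median of 67.3% against 52.7%, and held a median of 24.5 CpG sites against 7. Among windows of detected members 5 of 35 held the motif, 14.3%, and among those of the other members 1 of 15, 6.67%. These counts are too small to compare the groups. The motif windows of Frzb, Fzd1, Lef1 and Dkk1 lay at RefSeq starts with no annotated transcript beginning within 60 nt, so no TPM was assigned to them. A match is only a match of letters in these windows.

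The genes that make ligands fit for secretion were both expressed. Wls, the carrier that escorts WNT proteins to the cell surface, was at 123.84 TPM in replicate 1 and 126.21 in replicate 2, from 10373 and 7495 counts. Porcn, the acyltransferase that attaches the lipid, was at 12.11 and 10.84 TPM, from 513 and 330 counts and with bounds of 10.9 to 13.2 and 9.61 to 12.2 TPM. Wls therefore exceeded Porcn by a log2 ratio of 3.45 ± 0.13. The TPM of Wls lay just above its own deposited bounds, 119 to 123 TPM in replicate 1 and 120 to 125 in replicate 2, as did that of Ctnnb1.

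The Frizzled level was spread over several receptors instead of being led by a single gene. Fzd1 was at 23.18 TPM in replicate 1 and 22.84 in replicate 2, and Fzd2 at 23.30 and 21.67 TPM, with ranges that overlap. They took 24.7 ± 0.465% and 24.1 ± 0.529% of the summed Frizzled level of 93.3 ± 2.74 TPM. Bounds were 21.8 to 23.6 and 21.1 to 23.2 TPM for Fzd1 and 21.9 to 23.8 and 19.9 to 22.1 TPM for Fzd2. Fzd6, known from planar polarity, followed at 13.88 and 13.79 TPM with bounds of 12.9 to 14.3 and 12.6 to 14.2 TPM.

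Fzd4, which in the vasculature also serves as the Norrin receptor, was at 12.95 and 12.93 TPM, and Fzd7 at 10.85 and 10.36 TPM. Fzd3 was at 6.87 and 5.40 TPM and Fzd5 at 1.95 and 2.06 TPM. Fzd9, Fzd8 and Fzd10 lay between 0.67 and 0.96 TPM, on 39 to 61 counts, under the detection level in both libraries. By the range of the paired TPM values, 1 of the 9 neighbouring pairs of Frizzleds overlapped, Fzd1 with Fzd2. By the deposited bounds 4 pairs did, adding Fzd6 with Fzd4, Fzd9 with Fzd8 and Fzd8 with Fzd10, so the order within those pairs was not resolved. Fzd1 and Fzd2 exceeded Fzd7, the closest relative of both, by log2 ratios of 1.12 ± 0.03 and 1.08 ± 0.03. Fzd3, a polarity receptor like Fzd6, stood below it by a log2 ratio of -1.18 ± 0.24. Fzd1 lies on chromosome 5 (4753839 to 4758035, minus strand) and Fzd2 on chromosome 11 (102604396 to 102608058, plus strand). The summed Frizzled level was 0.634 times the summed ligand level in replicate 1 and 0.629 times in replicate 2.

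Both LRP co-receptors of the beta-catenin branch were present, Lrp6 at 13.65 TPM in replicate 1 and 12.56 in replicate 2 and Lrp5 at 6.60 and 6.19 TPM. Lrp5 was below Lrp6 in both, by a log2 ratio of -1.03 ± 0.02, on 756 and 542 counts against 3127 and 2055. Ror2, the receptor tyrosine kinase through which Wnt5a acts on polarity, was between them at 11.24 and 12.28 TPM, from 1110 and 840 counts, although its bounds overlapped those of Lrp6 in replicate 2. Bounds were 12.8 to 14.3 and 11.7 to 13.2 TPM for Lrp6, 10.4 to 12 and 11.1 to 13.3 TPM for Ror2, and 5.90 to 7.15 and 5.50 to 6.77 TPM for Lrp5. The leading Ror2 transcript, Ror2-201, took 79.22% of the gene's TPM in replicate 1 and 55.35% in replicate 2, so the gene's level was steadier than its division between forms.

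The secreted antagonists summed to nearly the same level as the ligands. Their total was 148.19 TPM in replicate 1 and 142.9 in replicate 2, which is 0.987 and 0.983 times the ligand total. TPM sums count RNA molecules of unlike proteins, and the closeness of the totals depends on which genes the lists hold.

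**Figure D3:**
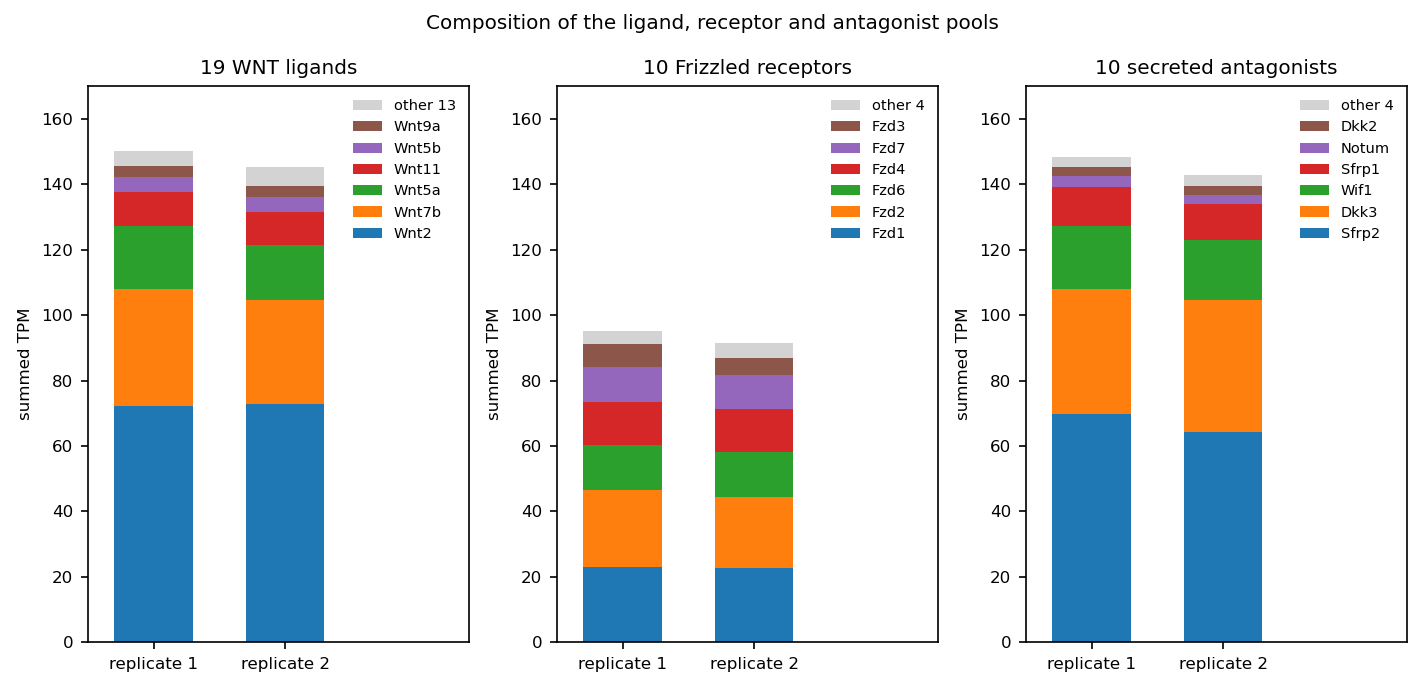
Summed TPM of the 19 ligands, 10 Frizzleds and 10 secreted antagonists in replicate 1 and replicate 2, with the 6 highest genes of each pool coloured and the rest in grey. The ligand and antagonist bars are of similar height, 142.9 to 150.21 TPM, and each is led by a single gene, Wnt2 or Sfrp2, while Fzd1 and Fzd2 lead the receptors together.

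Sfrp2, a secreted Frizzled-related protein that binds WNT proteins, led the antagonists at 69.79 TPM in replicate 1 and 64.18 in replicate 2, with 46.0 ± 1.54% of the total. Dkk3, a Dickkopf family member whose part in WNT signalling is less settled, was at 38.17 and 40.37 TPM, and Wif1, which binds WNT proteins directly, at 19.17 and 18.53 TPM. They rested on 3430 and 2264 counts for Sfrp2, 3250 and 2437 for Dkk3, and 1038 and 680 for Wif1. Bounds were 66.3 to 71.3 and 60.2 to 65.6 TPM for Sfrp2, 36.1 to 38.7 and 37.6 to 40.7 TPM for Dkk3, and 17.4 to 20.3 and 16.6 to 19.7 TPM for Wif1. Sfrp2 stood just below Wnt2 in TPM in both libraries, although their bounds overlapped in replicate 1. That order is one of gene totals. Wnt2-201 alone, at 40.93 and 40 TPM, was below Sfrp2-201, at 68.75 and 64.18 TPM.

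Sfrp1, closely related to Sfrp2, was at 12.03 and 10.95 TPM and stood below Sfrp2 by a log2 ratio of -2.54 ± 0.01. Notum, the enzyme that strips the lipid from WNT proteins, was at 3.37 and 2.72 TPM, and Dkk2 at 2.63 and 2.55 TPM. Dkk3 exceeded Dkk2 by a log2 ratio of 3.92 ± 0.09. Frzb, a further Frizzled-related protein, was at 1.24 TPM in replicate 1 and 2.20 in replicate 2, and Sfrp1 exceeded it by a log2 ratio of 2.80 ± 0.68. Sfrp4, Dkk1 and Sfrp5 lay between 0.30 and 0.68 TPM on 10 to 40 counts, among them Dkk1, the best known inhibitor of LRP6. Kremen1, the Dickkopf receptor, was at 15.57 and 17.13 TPM, from 1914 and 1494 counts with bounds of 14.6 to 16.0 and 15.8 to 17.5 TPM. The order from Sfrp2 down to Notum was separated by both the TPM ranges and the bounds. The TPM ranges overlapped for Sfrp4 with Dkk1 and Dkk1 with Sfrp5, and the bounds overlapped also for Notum with Dkk2 in both libraries and for Dkk2 with Frzb in replicate 2.

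Among the R-spondins, Rspo1 was highest at 6.20 TPM in replicate 1 and 6.66 in replicate 2, from 281 and 214 counts. Rspo2, the R-spondin whose loss in mice reduces lung branching, was at 4.69 and 3.30 TPM from 395 and 197 counts, and Rspo3, active in vessels, at 1.85 and 2.05 TPM from 111 and 87 counts. Rspo4 was at 0.79 and 0.81 TPM. Bounds were 5.51 to 7.45 and 5.77 to 8.04 TPM for Rspo1, 4.14 to 5.06 and 2.78 to 3.67 TPM for Rspo2, and 1.5 to 2.18 and 1.61 to 2.43 TPM for Rspo3. The sum of 13.2 ± 0.502 TPM was an order below that of the ligands, with a ratio of ligands to R-spondins of 11.1 in replicate 1 and 11.3 in replicate 2. Rspo1 exceeded Rspo3 by a log2 ratio of 1.72 ± 0.03, and Rspo2 exceeded it by 1.01 ± 0.46, where the spread comes with Rspo2.

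Lgr6 was the main R-spondin receptor gene, at 7.70 TPM in replicate 1 and 8.23 in replicate 2, with 68.4 ± 1.02% of the LGR total of 11.6 ± 0.375 TPM. Lgr5, the stem cell marker of the intestine, was at 1.96 TPM in both, on 206 and 136 counts, and Lgr4 at 1.71 TPM in both, on 220 and 148 counts. Bounds were 7.36 to 9.73 and 7.41 to 9.90 TPM for Lgr6, 1.84 to 3.02 and 1.78 to 3.43 TPM for Lgr5, and 1.53 to 2.12 and 1.48 to 2.26 TPM for Lgr4. Lgr5 stood below Lgr6 by a log2 ratio of -2.02 ± 0.07. The sign of Lgr4 over Lgr5, -0.20, met the rule, but it lies within 2 counting errors (SE 0.108 on the log2 scale) and their bounds overlap, so Lgr4 and Lgr5 were not told apart at this depth. Counts not divided by length give the opposite sign, 0.11.

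Znrf3 and Rnf43, the ligases that remove Frizzleds from the cell surface and that R-spondins hold in check, were at like TPM over all transcripts. Znrf3 was at 14.41 TPM in replicate 1 and 13.34 in replicate 2, from 2320 and 1520 counts, and Rnf43 at 13.23 and 13.81 TPM, from 1263 and 902 counts. Their log2 ratio was 0.04 ± 0.12, with opposite signs in the replicates. Counts not divided by length put it at 0.815 ± 0.088, and posterior means at -0.157 ± 0.150. Bounds were 13.6 to 14.7 and 12.4 to 13.7 TPM for Znrf3 and 13.1 to 16.3 and 13.7 to 17.8 TPM for Rnf43. The Rnf43 level includes a transcript annotated as a retained intron, Rnf43-206, which held 44.51% of its TPM in replicate 1 and 44.18% in replicate 2. The main coding forms of Rnf43, Rnf43-209 at 5.99 and 4.05 TPM and Rnf43-202 at 1.35 and 2.85 TPM, were each below Znrf3-201. Znrf3-201 was at 13.99 and 12.89 TPM. Both genes lie on chromosome 11, as do 11 of the 60 genes in all.

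Ctnnb1, which encodes beta-catenin, was the highest of the 60 genes, at 374.23 TPM in replicate 1 and 378.00 in replicate 2, from 32456 and 22977 counts. It lay above 98.5% of all genes coding for protein. The gene lies on chromosome 9 (120929216 to 120960507, plus strand). Most of its TPM was assigned to transcripts with a pair of nearby annotated starts. Ctnnb1-201 from the first held 38.94% and 30.61%, and Ctnnb1-214 from the second held 56.68% and 64.61%. Both forms have 781 codons, and the shares come from the division of reads among transcripts, not from reads that mark a start. Ulk4, on the opposite strand, shares 759 nt of exon with Ctnnb1 and was at 5.38 and 6.75 TPM. The strand setting is not given in the sources used here, so reads of the shared stretch cannot be assigned with certainty, although Ulk4 is far lower than Ctnnb1.

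Of the TCF/LEF factors, which carry beta-catenin to DNA, Tcf7l2 was highest over all its transcripts. It was at 42.66 TPM in replicate 1 and 34.57 in replicate 2. Tcf7l1, mostly known as a repressor, was at 26.75 and 24.43 TPM. These rested on 2882 and 1714 counts for Tcf7l2 and 1944 and 1258 for Tcf7l1. Bounds were 40.5 to 45.2 and 32.5 to 37.6 TPM for Tcf7l2 and 25.2 to 28.1 and 22.8 to 25.9 TPM for Tcf7l1. Lef1 was at 15 and 14.42 TPM and Tcf7 at 13.79 and 16.62 TPM, and their log2 ratio of -0.04 ± 0.23 changed sign between the replicates. Over all transcripts, Tcf7l2 exceeded Tcf7l1 by a log2 ratio of 0.59 ± 0.12, and Lef1 stood below Tcf7l2 by -1.38 ± 0.17. The leading coding forms stood in the other order, with Tcf7l2-209 at 15.98 and 13.22 TPM and Tcf7l1-201 at 23.93 and 21.49 TPM. Tcf7l2 has further coding forms, and its total also includes retained intron forms, so the order of the coding RNA was not settled. Of 22 annotated Tcf7l2 transcripts 14 had a value above 0 in replicate 1 and 13 in replicate 2, and 7 were at 0 in both. The leading form was Tcf7l2-209, with 459 codons, at 37.45% and 38.25%, followed by Tcf7l2-206, annotated as a retained intron, at 22.82% and 20.25%. Lef1-201, with 397 codons, held 62.0% and 59.69% of Lef1, and Lef1-202, with 369 codons, held 24.23% and 20.97%.

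Tcf7 is also a factor of thymocytes, and thymus markers moved in the same direction between the pools. Their summed level over 10 genes was 15.7 TPM in replicate 1 and 41.7 in replicate 2, with 5 of the 10 detected in both, none at 0, and all 6 at a mean of 1 TPM lower in replicate 1. The direction was not particular to thymus. All 9 liver, all 9 skeletal muscle and all 5 mesothelium markers at a mean of 1 TPM were also lower in replicate 1. Of the other lists, 7 of 9 cardiac, 6 of 10 lung identity and 3 of 4 airway cartilage markers were higher in replicate 1. The part of the thymus in the Tcf7 level was not tested.

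Axin2, which is induced by beta-catenin signalling in many tissues and feeds back on it, was at 7.04 TPM in replicate 1 and 6.40 in replicate 2, from 505 and 342 counts with bounds of 6.56 to 8.82 and 5.89 to 8.40 TPM. It lay above 53.6% of coding genes. Ctnnb1 exceeded Axin2 by 53.2-fold in replicate 1 and 59.1-fold in replicate 2. Axin2 exceeded Notum, another gene induced by the pathway, by a log2 ratio of 1.15 ± 0.12. Of the Axin2 TPM, 52.77% and 52.63% belonged to Axin2-201, the form with 840 codons.

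**Figure D4:**
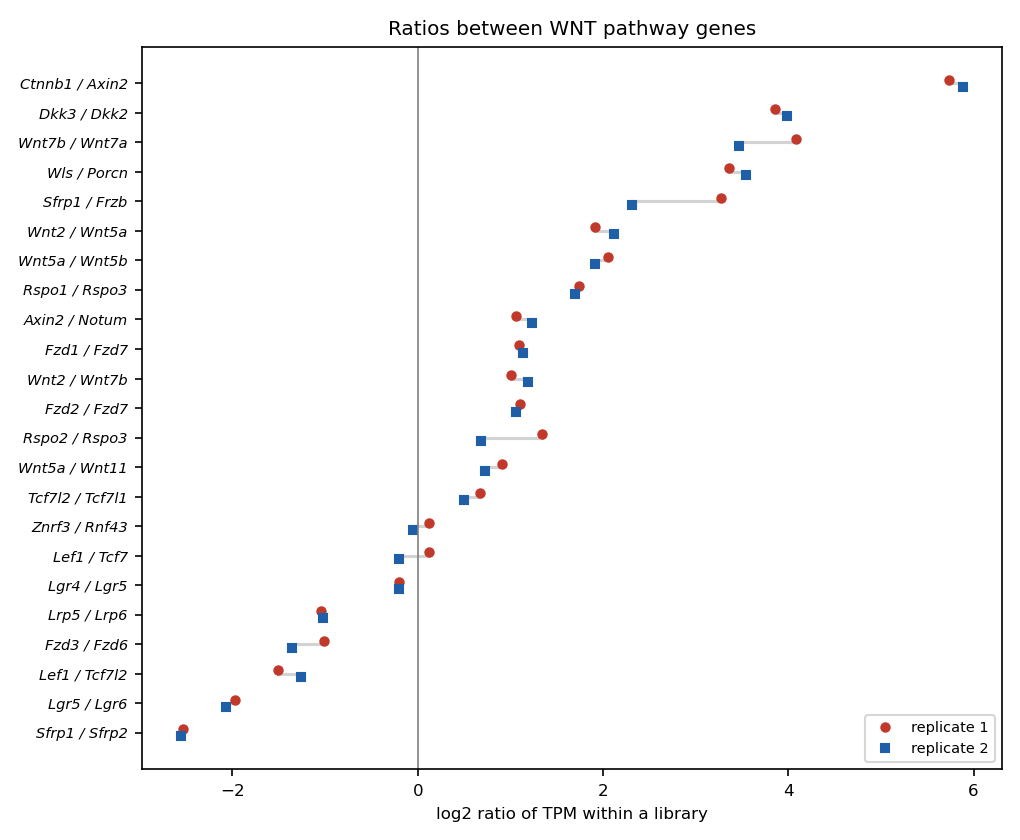
Log2 ratio of TPM within a library for the 23 gene pairs whose genes both reach 1 TPM in each library, replicate 1 as circles and replicate 2 as squares, with a line at 0. Of the 23 ratios, 21 have the same sign in both replicates and a mean beyond 2 SD, and Znrf3 over Rnf43 and Lef1 over Tcf7 straddle 0.

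The rest of the pathway was followed on 7 further lists of 3 to 16 genes. All 3 Dishevelled genes were detected, with Dvl2 at 25.69 TPM in replicate 1 and 25.11 in replicate 2 and Dvl3 at 14.05 and 12.03 TPM. Of 10 genes of the destruction complex 9 were detected, led by the casein kinases Csnk1a1 at 224.64 and 211.76 TPM and Csnk1d at 101.8 and 100.65 TPM. All 10 matched cofactors of beta-catenin and TCF were detected, led by Aes, a short Groucho protein, at 291.12 and 250.18 TPM and Ctnnbip1, an inhibitor of beta-catenin, at 49.43 and 47.4 TPM. Of 16 polarity genes 15 were detected, with Ptk7 at 119.05 and 116.61 TPM and Prickle1 at 21.46 and 20.08 TPM.

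Other extracellular inhibitors were sparser, with 5 of 12 detected. They were led by Igfbp4, chiefly known as an IGF binding protein, at 412.8 and 411.53 TPM, and Cthrc1 at 53.04 and 51.71 TPM. Of 6 glypicans, which carry WNT proteins on heparan sulphate, 5 were detected, with Gpc3 at 400.15 and 378.27 TPM and Gpc4 at 42.63 and 40.5 TPM. Of 16 feedback genes and targets 13 were detected, with Ccnd1 at 100.45 and 76.06 TPM and Bmp4 at 58.04 and 60.23 TPM. Many genes on that list answer to other pathways as well.

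Among the 41 WNT genes averaging 1 TPM or more, 0 differed 2-fold or more between the replicates, where 2.67% of all 15493 such genes did. The 15493 are genes of all types, and 13469 of them code for protein, as all the WNT genes do. This share and the spreads below were not computed over coding genes alone. Differences are replicate 1 minus replicate 2 on the log2(TPM + 1) scale, which understates those of low genes. By direction, 0.742% of all such genes were at least 2-fold higher in replicate 1 and 1.92% at least 2-fold lower. The median difference of the WNT genes was 0.02, with 24 higher and 15 lower in replicate 1, and that of all 15493 genes was -0.0015. Between 1 and 10 TPM the SD of the differences was 0.220 over 16 WNT genes and 0.527 over all 6238 genes, and between 10 and 100 TPM it was 0.120 over 23 WNT genes and 0.243 over all 7597. The median absolute difference was 0.0873 for the WNT genes and 0.166 for all genes between 1 and 10 TPM, whereas between 10 and 100 TPM it was the higher in the WNT genes, 0.104 against 0.0882.

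**Figure D5:**
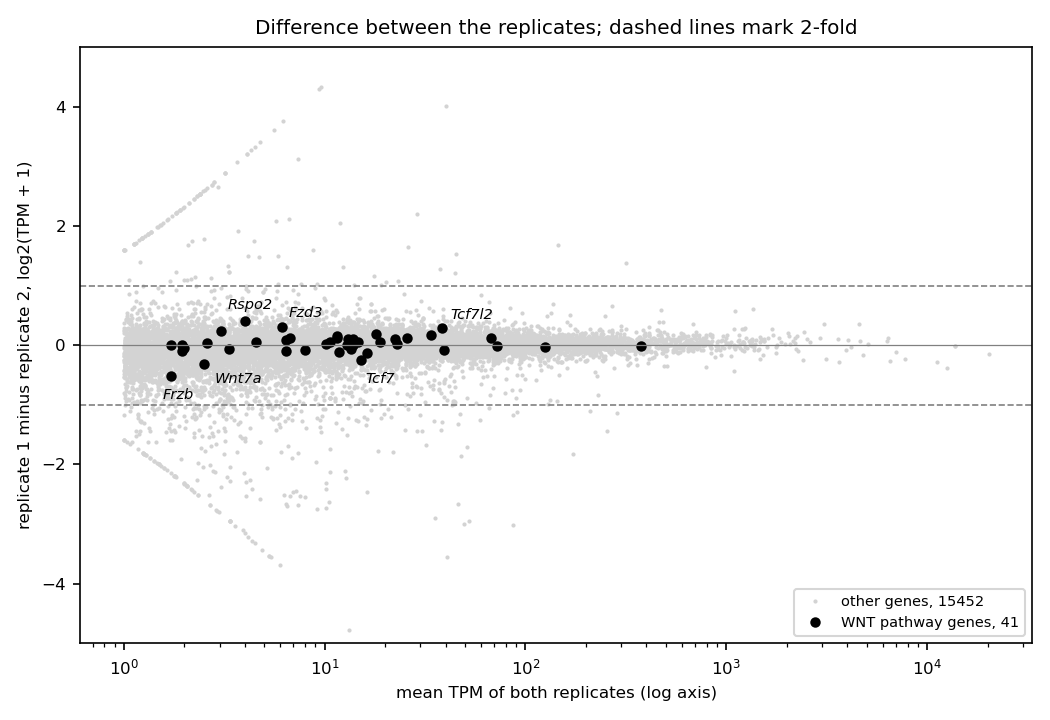
Difference between the replicates (replicate 1 minus replicate 2, log2(TPM + 1)) against mean TPM (log axis) for the 15493 genes averaging 1 TPM or more, with the 41 WNT pathway genes in black and dashed lines at 2-fold. All 41 lie between the dashed lines, and Frzb at -0.51 and Rspo2 at 0.40 are farthest from 0.

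The largest difference, that of Frzb at -0.51, rested on the transcript assignment. Frzb-201, which codes for the protein, was at 1.24 TPM in both replicates. Frzb-202, a short transcript without a coding frame, was at 0 TPM in replicate 1 and 0.96 in replicate 2, on 12.97 expected counts. Total Frzb counts were 99 and 83, which is 54.4% in replicate 1 (95% Clopper-Pearson interval 46.9 to 61.8%), against 58.9% of all gene counts. Rspo2, at 0.40, had 66.7% of its counts in replicate 1 (62.8 to 70.5%), and Fzd3, at 0.30, had 64.2% (61.4 to 67.0%), so their differences exceeded counting error. Tcf7l2, at 0.30, had 62.7% of its counts in replicate 1 (61.3 to 64.1%), and Tcf7, at -0.25, had 53.6% (51.1 to 56.1%). Of the 41 genes compared, 8 had such an interval above the share of all gene counts and 4 below it. That share is of counts not rescaled by TMM or size factors. Some intervals end close to it, that of Wls at 58.8% and that of Sfrp2 from 59.0%, so their place rests on this choice. The same count was not made over all genes, so the tally shows nothing particular to the WNT genes. These intervals cover counting error only, and the pools differ in more than counting.

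Of the 31 detected WNT genes with more than 1 annotated transcript, 27 were led by the same transcript in both replicates, 25 of them with at least 50% of the gene's TPM and 10 with at least 90%. Wnt7b, Kremen1, Lrp6, Sfrp2, Znrf3 and Tcf7 were among these 10. Leading transcripts were not counted over all genes, so whether these shares are usual in the libraries is not known here. The leader differed for Lgr4, Notum, Rnf43 and Wnt11. Lgr4-201, with 951 codons, held 62.07% in replicate 1 and 0% in replicate 2, where Lgr4-202, with 927 codons, held 94.58%, on 148 counts for the gene. Notum-201, a retained intron form, held 41.25% and 46.79% of Notum, and Notum-202, with 503 codons, held 45.89% and 34.72%. For Notum, Rnf43 and Wnt11 the level of the gene thus includes much RNA annotated without a full coding frame. Some genes with a steady leader held such RNA too. The retained intron form Wif1-202 held 15.43% of Wif1 in replicate 1 and 26.58% in replicate 2. Axin2-203, without a coding frame, held 18.23% and 25.45% of Axin2, and Tcf7l2-206 held 22.82% and 20.25% of Tcf7l2.

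On the genome, exons of 12 WNT genes overlap those of a gene on the other strand, and the partner of Ctnnb1 was at 1 TPM or above in each library. The partners of Lef1 and Rspo3, Gm43352 and Gm48159, were not matched to a row, so their levels are not known here, and those of the other genes were under 1 TPM in at least 1 library. The partner of Sfrp2, Gm26771, was at 1.62 and 0.97 TPM. Some ligand genes lie in neighbouring pairs. Wnt3a and Wnt9a lie 16.175 kb apart on chromosome 11, at 0.40 and 0.47 TPM for Wnt3a and 3.27 and 3.44 TPM for Wnt9a. Wnt6 and Wnt10a (6.193 kb apart on chromosome 1), Wnt9b and Wnt3 (24.328 kb apart on chromosome 11) and Wnt10b and Wnt1 (11.706 kb apart on chromosome 15) were all under 1 TPM, and their levels were not compared.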

How the data were processed

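Total RNA-seq of fetal lung was deposited as a gene table and a transcript table for each of 2 replicates. Per the labels, the build is mm10 and extraction used an Ambion mirVana kit, with spike-ins added and a SMARTer manual linked. The aligner, quantifier version and strand setting are not given in the sources used here. Per the file headers, the expected counts the authors deposited divide reads among matching features, the TPM and FPKM values are divided by effective length, the score columns are credibility bounds of TPM, and the percent columns give each transcript's share of its gene. The authors' posterior mean TPM served as an alternative.

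Identifiers were matched without version to GENCODE M21 on the same build, 42462 of 43346 gene rows and 181 of 182 transcripts of the WNT genes, of which 84 had the same version as in the annotation release M4 the authors used. Codon numbers and transcript starts are those of M21. Promoter windows came from RefSeq. Detection was 1 TPM in both replicates. Differences are on log2(TPM + 1), called at 2-fold among genes with a mean of 1 TPM, and fold changes on this log2 scale were computed from the deposited values. Per the labels the replicates are separate biological samples of pooled embryos, and with 1 group of 2 libraries no test was made. Totals of 38852470 and 27145411 expected counts set the precision, and intervals are Clopper-Pearson at 95%. edgeR 4.0.16 (TMM factors) and DESeq2 1.42.0 (size factors) in R 4.3.3 rescaled the rounded counts for alternatives only, and other steps used Python 3.11.15, NumPy 2.4.6, pandas 2.3.3 and SciPy 1.17.1.

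The members, lists and ratios were chosen with earlier results of these data known. Genes were described in full where they were among the 3 highest of a role, differed 2-fold, or stood in a listed ratio, and the 2 highest genes of each further list were named. Of 32 listed ratios, 9 had a gene under 1 TPM and were not computed. Apcdd1l and Tle5, also listed, were not matched and are not analysed here, while Aes was matched under that symbol.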

Additional observations from a re-analysis of the deposited data

How the results depend on the processing

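No paired analysis was possible because the 2 libraries form a single group. The count of 41 detected genes ran from 36 at a threshold of 2 TPM to 47 at 0.5 TPM, was 40 with FPKM, and ran from 41 to 42 with either replicate left out. The median of 5.18 TPM was 3.51 in FPKM and 6.72 after TPM were rescaled over coding genes without globin and mitochondrial genes, and ran from 4.915 to 5.445 with a replicate left out. That rescaling put the summed ligand level at 192 TPM instead of 147.79, and it ran from 145.37 to 150.21 TPM with a replicate left out. These moves follow from the construction, since a different total is divided, and ratios within a library are not touched. The count of genes differing 2-fold was 0 under all 6 alternatives tried, but the alternative with no filter could not call a gene under 1 TPM on the log2(TPM + 1) scale. On plain TPM, replicate 1 over replicate 2, Wnt6 was at 2.28-fold, Wnt3 at 0.414-fold and Wnt9b at 0.222-fold, on 2 to 22 counts per library. The median difference ran from 0 with no filter to 0.06 with DESeq2 size factors. The same transcript led in 27 of 31 genes, in 28 of 31 by posterior mean and, with fewer genes compared, in 16 of 18 at a mean of 10 TPM. The sign held for 21 of 23 ratios, for 22 with counts not divided by length and for 21 with posterior means. The ratio added with those counts was Znrf3 over Rnf43, which moved to 0.815. Without division by length, Lgr4 over Lgr5 reversed to 0.11 and several log2 ratios moved far, to 2.48 for Wnt5a over Wnt11, 3.27 for Wnt5a over Wnt5b, 0.56 for Wnt2 over Wnt5a, 0.34 for Wnt2 over Wnt7b, -1.37 for Sfrp1 over Sfrp2 and -1.99 for Lrp5 over Lrp6. The posterior mean moved Wnt16 3.71-fold, to 0.575 TPM, and Wnt10a 2.35-fold, to 0.200 TPM, both on 6 counts or fewer per library.

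Depth limits the order of the ligands under 1 TPM. With 2 libraries of pooled embryos, the SD rests on a single difference, and division of reads among transcripts adds error that the counts do not show.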
